A study of Mus musculus with 14 samples.

Results

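Fatty acid desaturases and elongases were examined in 2 populations of mammary luminal cells. The list holds 10 genes: the Fads genes Fads1, Fads2, Fads3 and Fads6, the stearoyl-CoA desaturase genes Scd1 and Scd2, and the elongase genes Elovl1, Elovl5, Elovl6 and Elovl7. They were chosen by family membership with the Lu-pos against Lu-neg differences of these same arrays already known, so those differences are given here as a description and carry no test. Of the 10, 9 had a probe set annotated with a single gene symbol, 1 probe set each, among 22180 genes measured in this way. The probe set of Scd2 also carries the symbol of a microRNA gene, and Scd2 was therefore not analysed here.

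The arrays compare Lu-pos with Lu-neg cells. Lu-pos cells are CD24+ ICAM1+ and Lu-neg cells CD24+ ICAM1-; both were sorted by flow cytometry from glands of adult virgin females aged 4 to 6 months, of the BALB/cByJ JAX and C57Bl/6 strains, with antibodies to CD45 and CD31 in the stain. Basal cells are CD24+ ICAM1+ too and were gated apart, so a share of them in a sort would carry the same label. Each population has 7 samples, numbered 1 to 7, and the Lu-pos and Lu-neg samples of a number form a pair. Each pool combined at least 12 glands, so that a sample is a pool of animals; which strain went into which pool was not analysed here. All values are log2 intensities of 1 probe set, and differences are Lu-pos minus Lu-neg on that scale.

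Desaturases place double bonds in fatty acyl chains with electrons from cytochrome b5, and elongases catalyse the first step of a cycle in the endoplasmic reticulum that lengthens the chain by a pair of carbons. Fads2, the delta-6 desaturase, and Fads1, the delta-5 desaturase, work in turn with Elovl5 to turn dietary linoleic and alpha-linolenic acid into arachidonic and eicosapentaenoic acid. Scd1 makes oleic acid from stearic acid, Elovl6 makes stearic from palmitic acid, and Elovl1 and Elovl7 extend longer saturated chains. The mammary gland is known for its lipid output in lactation, for which the luminal cells of the alveoli make and desaturate fatty acids; the cells measured here came from virgin glands.

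The labelled populations are described here by marker genes. All 9 measured luminal progenitor markers, among them Kit, Elf5 and Aldh1a3, were called higher in Lu-pos by limma, and all 7 measured hormone-sensing markers, among them Esr1 and Pgr, were called lower. The study had reported several of them, such as Elf5, Aldh1a3, Esr1 and Pgr, from these same arrays, so the calls are no independent check. The luminal keratin genes Krt8 and Krt18 lay above a log2 level of 11 on average in both populations. The array medians lay between 3.46 and 3.58. A background level of 3.73 was taken from olfactory and vomeronasal receptor genes, and all 9 measured members had a mean above it.

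The Fads genes of chromosome 19 stand side by side in the RefSeq annotation, in the order Fads3, Fads2, Fads1, with no other protein-coding gene between them. Scd1 lies on the same chromosome, where the order is Scd3, Scd2, Scd4, Scd1. RefSeq promoter windows (build GRCm38.p6) were found for 7 of the 10 genes, Fads2, Fads3, Fads6, Elovl1, Elovl5, Elovl6 and Elovl7. The 250 bases before the annotated start are shown for Fads2 and Fads3, neighbours that were both higher in Lu-pos, and for Elovl7, the elongase with the largest negative difference. Capitals mark, on either strand, the Sp factor motif GGGCGG and the motif of the factor NF-Y, which reads CCAAT.
Fads2, chr19:10101504-10101753, minus strand: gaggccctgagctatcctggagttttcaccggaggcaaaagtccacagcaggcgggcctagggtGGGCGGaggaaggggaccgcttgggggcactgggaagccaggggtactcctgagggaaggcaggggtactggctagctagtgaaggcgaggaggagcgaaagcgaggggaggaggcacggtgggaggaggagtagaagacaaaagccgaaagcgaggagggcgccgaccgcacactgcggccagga
Fads3, chr19:10041298-10041547, plus strand: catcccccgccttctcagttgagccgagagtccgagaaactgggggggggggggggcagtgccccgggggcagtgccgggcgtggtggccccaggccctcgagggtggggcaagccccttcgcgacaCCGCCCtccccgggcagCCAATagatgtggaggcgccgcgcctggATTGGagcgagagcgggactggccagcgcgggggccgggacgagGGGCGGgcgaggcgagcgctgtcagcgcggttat
Elovl7, chr13:108214154-108214403, plus strand: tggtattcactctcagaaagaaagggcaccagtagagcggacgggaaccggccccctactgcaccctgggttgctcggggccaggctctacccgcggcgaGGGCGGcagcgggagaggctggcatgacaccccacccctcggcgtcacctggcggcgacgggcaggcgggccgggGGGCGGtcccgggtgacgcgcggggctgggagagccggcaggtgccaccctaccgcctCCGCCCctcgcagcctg

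The Fads2 window held 1 Sp motif and no NF-Y motif, the Fads3 window 2 of each, and the Elovl7 window 3 Sp motifs and no NF-Y motif. The Sp motif was found in 32.7% and the NF-Y motif in 33.8% of all 32851 windows of this length. The windows were rich in G and C, at 64.8% for Fads2, 74.4% for Fads3 and 73.6% for Elovl7, against a median of 52.4% over all windows. A form of the sterol regulatory element, TCACNCCAC, was searched on both strands as well and stood in none of the members' windows and in 1.05% of all windows. The same held for an ETS factor motif, CCGGAAG, which was present in 6.91% of all windows. The motifs overlapped nowhere in the sequences shown.

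In Lu-pos cells 3 of the 4 Fads genes and Scd1 were higher, and Fads6, Elovl1 and Elovl7 were lower. At an adjusted p under 0.05 over all genes, limma called 4 of the 9 measured members higher, where 4.35% of all 22180 genes were called higher, and 3 lower, where 7.19% were. Because the members were chosen with this contrast known, nothing is read from these counts. Their median difference was -0.18, against -0.02 for all genes. By role, the 4 Fads genes had a median of 1.85, the 1 measured Scd gene had 1.26 and the 4 elongases had a median of -0.39. With the arrays scaled to housekeeping genes, every difference rose by 0.123 and the all-gene split became 1688 higher and 929 lower, against 964 and 1595 as deposited, while the members' counts stayed at 4 and 3. In sorted but bulk samples, a smaller share of cells that express a gene and less RNA per cell cannot be told apart.

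**Figure D1:**
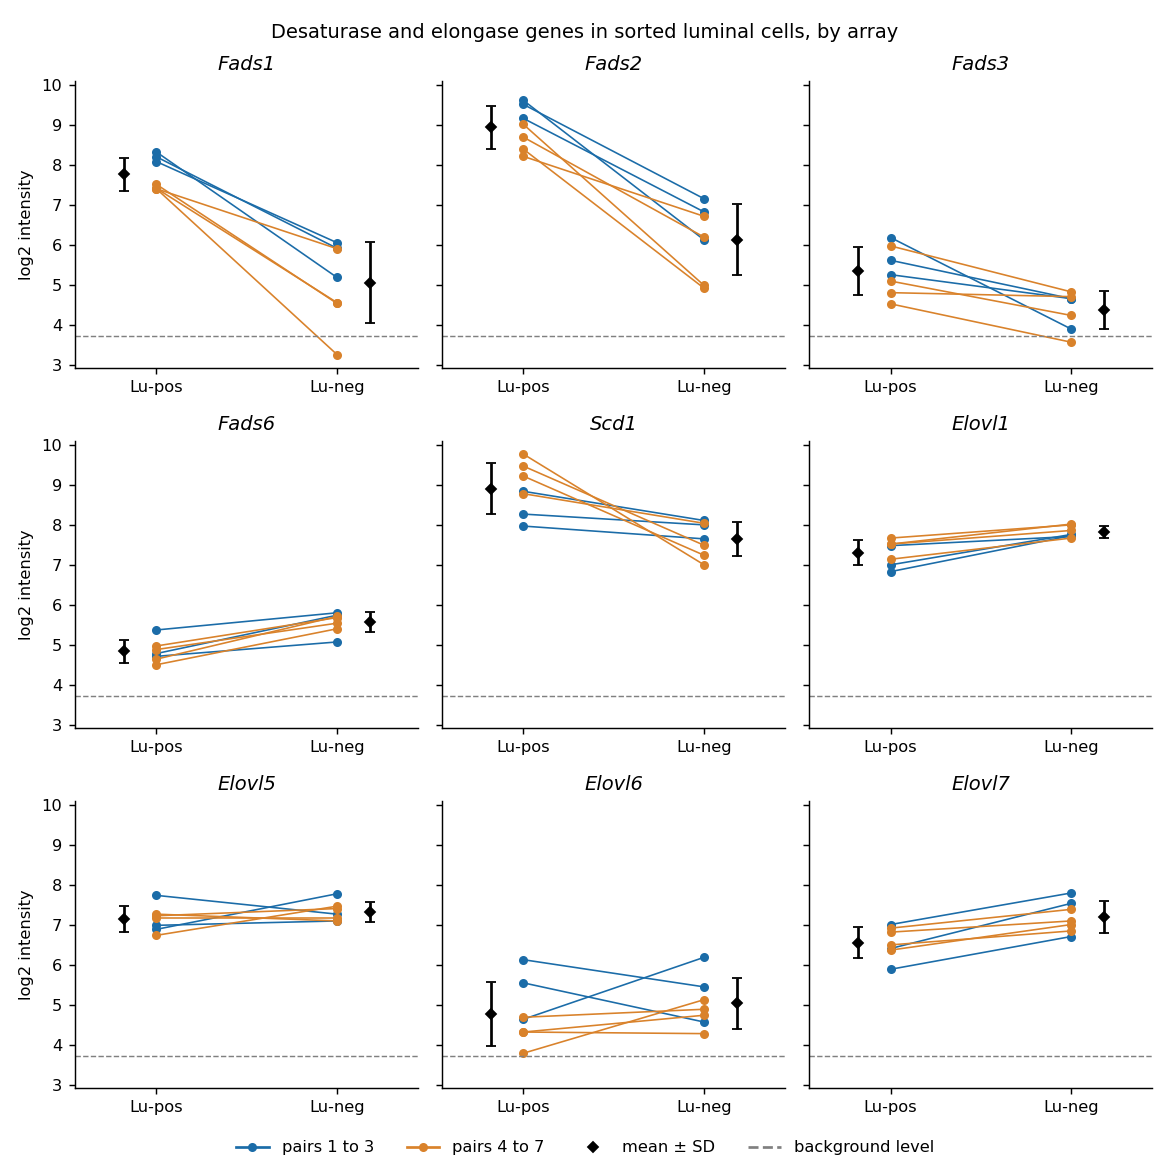
Log2 intensity (y axis) of the 9 measured genes in each Lu-pos and Lu-neg sample; lines join the samples of a pair, diamonds give the mean ± SD of 7 samples and the dashed line the background level of 3.73. Fads1 and Fads2 lay higher in all Lu-pos than in all Lu-neg samples, whereas Elovl5 and Elovl6 overlapped widely.

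Fads2, which opens the polyunsaturated pathway, had the largest difference of the list. Its log2 level was lowest at 8.22, with a median of 9.02 and a highest value of 9.62 in Lu-pos, against 4.92, 6.20 and 7.16 in Lu-neg. Every Lu-pos sample was above every Lu-neg sample. The means were 8.95 ± 0.54 in Lu-pos and 6.14 ± 0.88 in Lu-neg (SD, n = 7 each), a difference of 2.81 (standard error 0.27), or 7.03-fold. Pair by pair, from 1 to 7, the difference was 2.34, 2.36, 3.49, 1.5, 3.48, 4.03 and 2.5. The smallest was that of pair 4, whose Lu-pos sample was the lowest of its population and whose Lu-neg sample was among the 3 highest. Among all 22180 genes this difference ranked 8.

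Fads1, which acts after Fads2, showed the same separation. It ran from 7.41 over a median of 7.52 to 8.33 in Lu-pos, against 3.26, 5.19 and 6.06 in Lu-neg. Fads1 and Fads2 were the 2 members whose populations did not overlap in this direction, a pattern found in 1.34% of all genes. The Lu-pos mean was 7.77 ± 0.42 and the Lu-neg mean 5.06 ± 1.02 (SD, n = 7 each), which gave a difference of 2.71 (standard error 0.27), or 6.53-fold, and rank 12 among all genes. The paired differences spanned 1.5 in pair 4 to 4.15 in pair 5, in which the Lu-neg sample lay below background. Both genes varied more among Lu-neg than among Lu-pos samples, Fads1 with an SD of 1.02 against 0.42 and Fads2 with an SD of 0.88 against 0.54.

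The luminal progenitor markers moved within Lu-neg as well. Their summed linear intensity was 1674 in Lu-neg sample 4 and between 435 and 1077 in the 6 other Lu-neg samples, against 3169 to 3750 in Lu-pos. Sample 4 also had the smallest paired differences of Fads1, Fads2 and Fads3. The other Lu-neg samples did not keep to this order. Lu-neg sample 3 had the lowest marker sum, 435, and the highest Fads1 level, 6.06. Lu-neg samples 5 and 6, with sums of 654 and 754, had the lowest Fads2 levels, 4.92 and 4.99. Without pair 4 the difference of Fads2 was 3.03 and that of Fads1 2.91. The part of the markers in these differences was not tested.

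Fads3, a relative of Fads1 and Fads2 that has been linked to double bonds in sphingoid bases, was higher by less. It ranged from 4.53 over a median of 5.26 to 6.19 in Lu-pos, against 3.57, 4.66 and 4.83 in Lu-neg. The populations overlapped, but Lu-pos was higher within each of the 7 pairs, by 0.10 in pair 4 to 2.29 in pair 3. The difference of the means was 0.99 (standard error 0.21), or 1.98-fold, and 1 Lu-neg sample lay below background.

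Fads6, a Fads gene whose substrate is not well established, ran the other way. Its level was between 4.51 and 5.38 with a median of 4.79 in Lu-pos, and between 5.08 and 5.81 with a median of 5.69 in Lu-neg. Lu-pos was lower in all 7 pairs although the ranges overlapped. The difference was -0.73 (standard error 0.10), a level 1.66-fold lower in Lu-pos. The 4 Fads genes thus did not share a direction, under the deposited scaling or with the arrays scaled to housekeeping genes.

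Scd1, the delta-9 desaturase that supplies oleic acid, was higher in Lu-pos in all 7 pairs. Levels ran from 7.98 over a median of 8.85 to 9.78 in Lu-pos, against 7.01, 7.66 and 8.12 in Lu-neg. Only 1 Lu-pos sample, number 3, lay below the highest Lu-neg sample. The mean difference was 1.26 (standard error 0.30), or 2.39-fold, and this was the member with the widest spread of paired differences (SD 0.98). Pairs 1 to 3 had differences of 0.73, 0.27 and 0.32, and the 4 further pairs had 0.74, 2.77, 1.98 and 1.98. Without pair 6 or without pair 7 the difference was 1.14 in either case.

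Scd1 and Fads2 ran in opposite order across most Lu-pos samples and in like order across Lu-neg samples. In Lu-pos, Fads2 was at 9.17 to 9.62 in pairs 1 to 3 and at 8.22 to 9.02 in pairs 4 to 7, while Scd1 was at 7.98 to 8.85 and at 8.79 to 9.78 in the same sets. With pair 4 set aside, the 6 other Lu-pos samples stood in exactly reverse order for Fads2 and Scd1; pair 4 was lowest for Fads2 and among the 3 lowest for Scd1. In Lu-neg, samples 5 and 6 were the lowest for both genes, and samples 1, 2 and 4 were the highest 3 for both. Fads1 in Lu-pos was, like Fads2, higher in pairs 1 to 3, at 8.09 to 8.33, than in pairs 4 to 7, at 7.41 to 7.52. Within pairs 1 to 3 the order was reversed, with Fads1 at 8.33, 8.21 and 8.09 and Fads2 at 9.17, 9.52 and 9.62. These 2 sets of pools come from earlier results of the same arrays and no label names a difference between them. The differences between the sets were not tested, and sets of 3 and 4 are too small for a correlation.

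**Figure D2:**
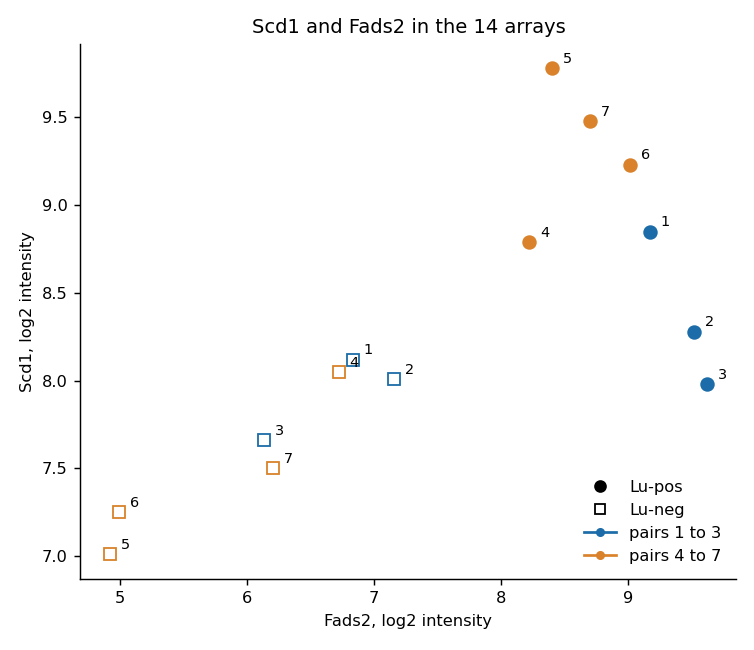
Log2 intensity of Fads2 (x axis) and Scd1 (y axis) in the 14 samples; filled circles are Lu-pos, open squares Lu-neg, numbers the pairs and colours the 2 sets of pools. In Lu-neg both genes were lowest in samples 5 and 6, while among Lu-pos samples Scd1 was highest in pair 5 (9.78) and lowest in pair 3 (7.98), where Fads2 was highest (9.62).

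Fibroblast and adipocyte genes were looked at beside Scd1, which fat cells express as well. The fibroblast marker sum was 301 to 463 in the Lu-pos samples of pairs 1 to 3 and 1036 to 1628 in those of pairs 4 to 7, against 314 to 575 and 1223 to 1792 in Lu-neg. The 2 sets of pools did not overlap in this sum in either population. Dcn was the brightest of the 8 fibroblast markers on average and weighs most in a linear sum. It was at 7.11 to 10.5 in Lu-pos and 7.85 to 10.69 in Lu-neg. Lum, Pdgfra, Pdgfrb and Fbln1 lay below background on average. Scd1 in Lu-neg was at 7.66 to 8.12 in pairs 1 to 3 and at 7.01 to 8.05 in pairs 4 to 7. Of 8 measured adipocyte markers 1, Lipe, was called by limma, as lower in Lu-pos, a call lost by the methods' t-test after adjustment. The adipocyte sum ran from 196 to 942 with a median of 469 in Lu-pos and from 210 to 1208 with a median of 651 in Lu-neg. Adipoq, Plin4, Cidec and Retn lay below background on all 14 arrays, whereas Fabp4, which endothelial cells also express, reached 9.67 in Lu-pos and 10.04 in Lu-neg. Lipe lay above background on all 14 arrays, Plin1 in 6 of 7 Lu-pos and 4 of 7 Lu-neg samples, and Lep in 1 Lu-neg sample. The part of these cells in the Scd1 values was not tested.

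The other marker lists held little that was called. None of 10 measured basal markers passed limma's test or the methods' t-test after adjustment (2 had an unadjusted p under 0.05, both higher), although their summed intensity was wide, at 437 to 1220 in Lu-pos and 201 to 2007 in Lu-neg. None of 11 immune markers passed either test (2 had an unadjusted p under 0.05, both higher), and 9 of them lay below background on average. Of 8 endothelial markers Vwf and of 8 fibroblast markers Dcn were called lower in Lu-pos; the endothelial sum was 95.1 to 633 in Lu-pos and 169 to 697 in Lu-neg. The part of these cells in the members' values was not tested.

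Of the 4 elongase genes, Elovl1 and Elovl7 were lower in Lu-pos in every pair, and Elovl5 and Elovl6 differed in sign between pairs. Elovl7 ranged from 5.90 over a median of 6.51 to 7.02 in Lu-pos, against 6.72, 7.11 and 7.81 in Lu-neg, and was lower in Lu-pos in all 7 pairs. The difference was -0.64 (standard error 0.11), or 1.56-fold lower. It was -0.79, -0.82 and -1.13 in pairs 1 to 3 and between -0.64 and -0.28 in pairs 4 to 7, so that the 2 sets did not overlap. Elovl1 ran from 6.84 over 7.49 to 7.68 in Lu-pos and from 7.68 over 7.77 to 8.03 in Lu-neg. No Lu-pos sample exceeded the lowest Lu-neg sample, which the highest Lu-pos sample equalled, and the difference of -0.51 (standard error 0.10) was the smallest in size among the members that ran one way in all 7 pairs.

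Elovl5, the elongase that acts between Fads2 and Fads1, overlapped widely between the populations. Its levels were 6.75 to 7.75 with a median of 7.19 in Lu-pos and 7.11 to 7.79 with a median of 7.28 in Lu-neg. Lu-pos was higher in 2 pairs, lower in 4 and equal in 1. The difference was -0.18, with a 95% interval of -0.54 to 0.17. Elovl6, which makes stearic acid, ranged from 3.80 over 4.65 to 6.14 in Lu-pos and from 4.29 over 4.90 to 6.20 in Lu-neg, higher in 3 pairs and lower in 4. Its interval of -0.91 to 0.40 around -0.26 was wider, since its paired differences ran from -1.55 to 0.98.

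**Figure D3:**
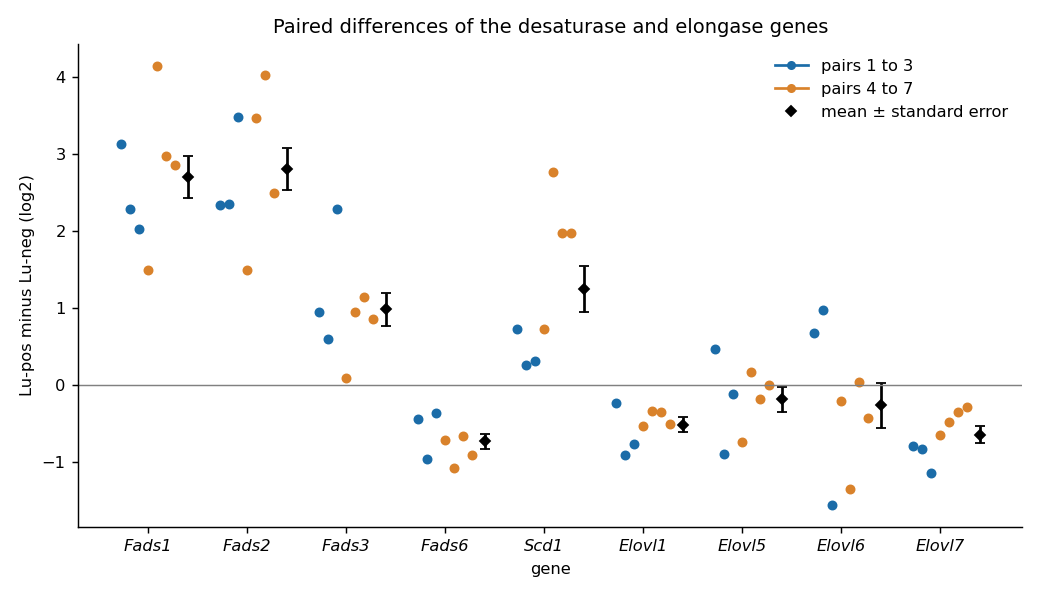
Lu-pos minus Lu-neg difference (log2, y axis) of each gene in pairs 1 to 7, from left to right within a gene, coloured by set of pools; diamonds give the mean ± standard error from limma. All 7 points lie above 0 for Fads1, Fads2, Fads3 and Scd1 and below 0 for Fads6, Elovl1 and Elovl7.

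The genes whose arrays varied most like those of Fads2 were found over the 14 arrays after the population mean was subtracted, among 11028 genes above background. They were Irf2bp2 (Pearson r = 0.88), Sap130 (0.88) and the progenitor marker Tspan8 (0.87). Those most like Scd1 were Prmt3 (0.83), Sh3bgrl (0.83) and Bricd5 (0.82). These coefficients are the highest of the search, were not tested against chance, and describe arrays that share pools and both populations together. Fads1 reached 0.78 with Fads2.

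The rest of the family gave no call and little signal. Elovl2, Elovl3 and Elovl4, further elongases, Scd3 and Scd4, relatives of Scd1, and Fads2b, a relative of Fads2, all had means below 3.73. Their differences lay between -0.18 for Fads2b and 0.06 for Scd4, at an adjusted p from 0.474 to 0.963 by limma; 0 of 6 had an unadjusted p under 0.05, and the methods' t-test called 0 as well. The widest 95% interval, that of Fads2b, ran from -0.46 to 0.10, on values at background where differences are compressed. The Scd genes are close in sequence, and hybridisation of 1 transcript to the probes of another was not tested.

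Of 84 measured genes in 9 lists of the surrounding pathway, the other family members included, 7 rose and 10 fell in Lu-pos at an adjusted p under 0.05 by limma. This is a share of 41.2% rises among the calls, against 66.7% with 12 rises and 6 falls when the arrays were scaled to housekeeping genes and 52.9% with 9 rises and 8 falls after quantile normalization. Over all genes the share of rises among the calls was 37.7% as deposited, 64.5% with the housekeeping scaling and 41.9% after quantile normalization. The median difference of the 84 genes was -0.05, against -0.02 for all genes. Of all 22180 genes, limma called 4.35% higher and 7.19% lower. The lists were written from textbook knowledge with earlier results of these arrays in view, so nothing is read from the counts of a list.

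**Figure D4:**
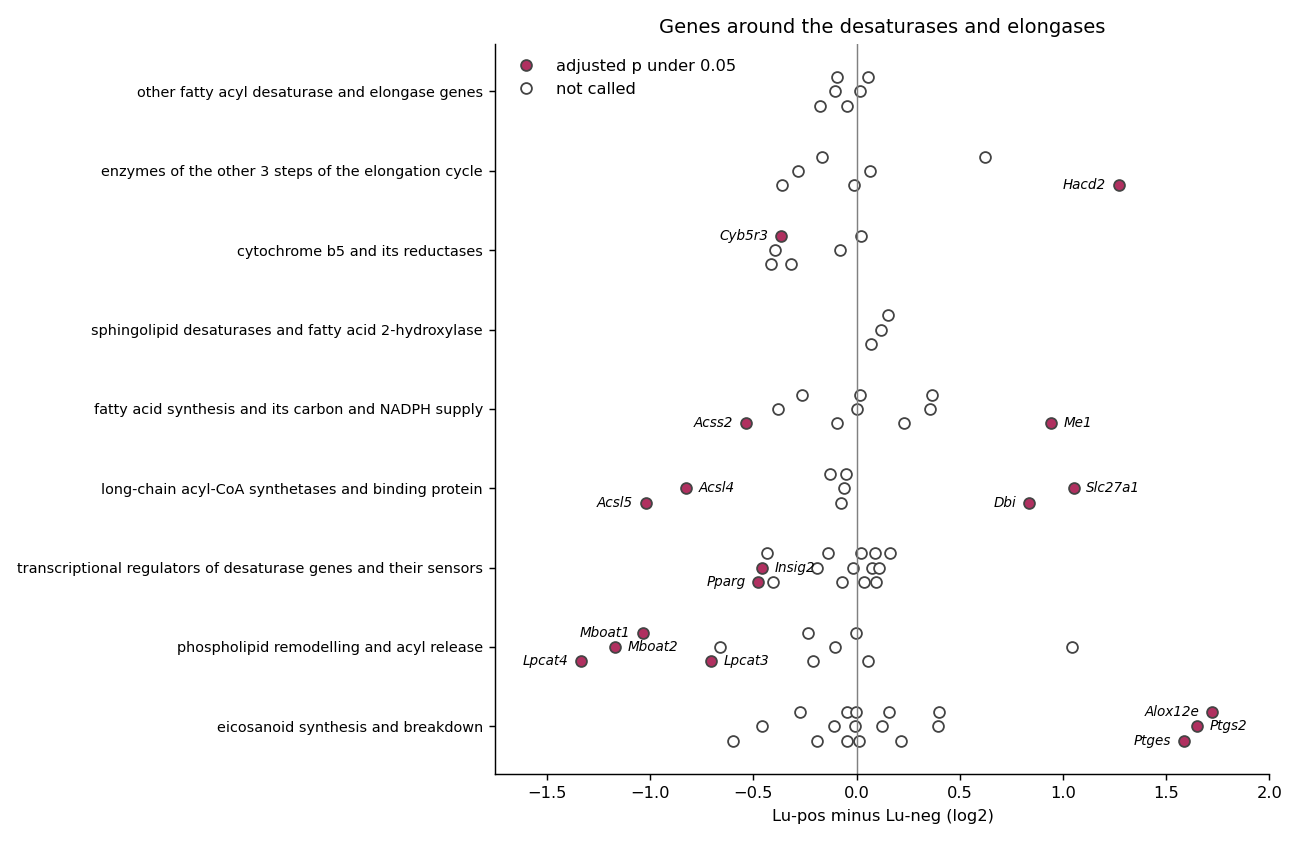
Lu-pos minus Lu-neg difference (log2, x axis) of the 84 pathway genes by list; filled points have an adjusted p under 0.05 by limma and carry their names, open points were not called. The 3 largest rises, of Alox12e, Ptgs2 and Ptges, belong to eicosanoid synthesis, and the 4 called genes of phospholipid remodelling all fell.

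Of the enzymes that complete the elongation cycle, 1 of 7 rose. Hacd2, a dehydratase of the third step, was at 6.66 to 7.74 with a median of 7.41 in Lu-pos and at 4.95 to 6.98 with a median of 6.12 in Lu-neg. Its difference was 1.27 (standard error 0.27, adjusted p = 0.014 by limma), higher in all 7 pairs; the call was lost by the methods' t-test (adjusted p = 0.0839) and in pairs 4 to 7 alone. Among cytochrome b5 and its reductases, which hand electrons to the desaturases, none rose and 1 of 6 fell: Cyb5r3, by -0.37 (standard error 0.10, adjusted p = 0.0463), lower in 6 of 7 pairs. This call was lost by the methods' t-test, in each of the 4 other scalings tried, without the pairing, and without any 1 of pairs 1, 2, 3, 4, 6 and 7. None of the 3 sphingolipid genes, Degs1, Degs2 and Fa2h, was called by limma or the methods' t-test, and 0 had an unadjusted p under 0.05. Degs2 and Fa2h lay below background on average, which limits what can be said of them.

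Fatty acid synthesis and its supply were split. Of 10 genes Me1, the malic enzyme that yields NADPH, rose, with 5.76 to 6.70 in Lu-pos and 5.00 to 5.75 in Lu-neg and no overlap (difference 0.94, standard error 0.20, adjusted p = 0.0153 by limma). The call of Me1 was lost by the methods' t-test (adjusted p = 0.0831) and in pairs 4 to 7 alone, where the difference was 0.68, against 1.29 in pairs 1 to 3. Acss2, which activates acetate, fell by 0.54 on the log2 scale (standard error 0.15, adjusted p = 0.0455), in 6 of 7 pairs, with 3 of 7 Lu-pos samples below background; this call too was lost by the methods' t-test, without pair 1, 4, 5, 6 or 7, in either set of pools alone and with the housekeeping scaling. Fasn, the fatty acid synthase that makes palmitic acid, was 0.23 higher in Lu-pos (standard error 0.08, adjusted p = 0.0909), and is named after its values were seen.

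Genes that activate and carry acyl chains moved both ways. Of 8 measured, Slc27a1, a fatty acid transport protein, rose by 1.05 (standard error 0.16, adjusted p = 0.00359 by limma) and Dbi, the acyl-CoA binding protein, by 0.83. The call of Slc27a1 was lost in each set of pools alone (adjusted p = 0.0617 and 0.0585 by limma), with differences of 1.02 and 1.07. Acsl5, an acyl-CoA synthetase, fell: it was at 5.79 to 6.46 in Lu-pos and 6.88 to 7.56 in Lu-neg, without overlap, a difference of -1.02 (standard error 0.09, adjusted p = 0.000404). Acsl4, the synthetase that prefers arachidonic acid, fell as well, at -0.82 (standard error 0.18, adjusted p = 0.016 by limma). The call of Acsl4 was lost by the methods' t-test after adjustment, and that of Acsl5 was kept. Dbi and Acsl4 are named after their values were seen, as further calls of this list.

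Genes that remodel phospholipids and free their chains gave 4 falls and no rise among 11 measured. Lpcat4, an acyltransferase, had levels of 5.41 to 7.17 in Lu-pos and 6.92 to 8.18 in Lu-neg (difference -1.34, standard error 0.28, adjusted p = 0.0135 by limma). For pairs 1 to 3 alone its difference was -2.16, for the 4 further pairs -0.72, and the call was lost by the methods' t-test (adjusted p = 0.0828). Lpcat3, which places linoleic and arachidonic acid in phospholipids, Mboat1 and Mboat2 fell too, at -0.71, -1.04 and -1.17, and each of these 4 genes was lower in all 7 pairs. Mboat7, which places arachidonic acid in phosphatidylinositol, had a difference of -0.0014 with an interval of -0.25 to 0.24. Lpcat1 was higher in 6 of 7 pairs, by 1.04 (standard error 0.29), and just missed the threshold at an adjusted p = 0.05. Lpcat1, Lpcat3, Mboat1, Mboat2 and Mboat7 are named after their values were seen.

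Of 18 measured genes of eicosanoid synthesis and breakdown, which turn arachidonic acid into prostaglandins and related lipids or act on those products, 3 rose and none fell by limma, and 3 had lower values at an unadjusted p under 0.05. Alox12e, a lipoxygenase of epithelia, was at 4.31 to 7.14 with a median of 5.02 in Lu-pos and at 3.33 to 3.86 in Lu-neg, where 6 of 7 samples lay below background (difference 1.72, standard error 0.33, adjusted p = 0.0098 by limma). The call of Alox12e was lost by the methods' t-test (adjusted p = 0.0716) and in each set of pools alone. Ptgs2, the inducible cyclooxygenase, and Ptges, a synthase of prostaglandin E2, rose by 1.65 (standard error 0.25) and 1.59 (standard error 0.20), both in all 7 pairs; they are named after their values were seen.

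The regulators of these genes gave no rise and 2 falls among 15 measured. Srebf1, which encodes the sterol-regulated activator of Scd1 and the Fads genes, had a difference of 0.04, with an interval of -0.32 to 0.40. Srebf2 had 0.02, with an interval of -0.22 to 0.27. The encoded factors are activated by cleavage of the protein, which arrays do not measure. Insig2, which holds that cleavage back, was lower by -0.46 (standard error 0.12, adjusted p = 0.034 by limma). This call was lost by the methods' t-test after adjustment. Pparg was called as well, but all 7 Lu-pos and 4 of 7 Lu-neg samples lay below background, so no fold is given; its call was lost with the housekeeping scaling and in either set of pools alone. Srebf1, Srebf2 and Insig2 are named after their values were seen.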

How the data were processed

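RNA of 7 Lu-pos and 7 Lu-neg samples was amplified (labels and methods differ on the amount) and hybridised to single-colour Affymetrix whole-transcript mouse arrays, 1 per sample. The authors deposited log2 intensities per probe set, with RMA and the Affymetrix Expression Console named in the submitters' processing notes without a version. The methods also name EASANA and quantile normalization, an analysis not repeated here. Amplification and the log2 summary of probes compress differences, above all near background, and precision is limited by how many arrays there are.

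Of 41345 probe sets, 23521 with 1 gene symbol were kept, 1820 had several and 16004 none in the annotation used. The brightest probe set stood for each of 22180 genes, and no filter on level was set. The background level of 3.73 was the 95th percentile of the means of 1390 chemosensory receptor genes.

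The 2 populations were contrasted in limma 3.58.1 (lmFit and eBayes, R 4.3.3) with the pair as a block, because the study's methods describe a paired test, and p-values were adjusted by Benjamini-Hochberg over all genes. Deviations from the population means correlated within the 7 pairs at 0.178, 0.256, 0.189, 0.171, 0.246, 0.211 and 0.166. These values were not compared with those of samples of unlike number, so they do not test the pairing. The fit was tested on simulated data. The series' design calls the 7 pools distinct and the samples paired. With the pair as a block, the p-values rest on how the paired differences vary between these pools. Motifs were counted in RefSeq promoter windows.

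Named were all members, the called gene with the largest rise and fall in each pathway list, the rest of the family, and the 3 genes most like Fads2 and Scd1; others are marked in the text. The members and lists were chosen with earlier results of these data known. Of the 8 planned housekeeping genes 6 were measured. The array annotation names no genome build; symbols were read against RefSeq GRCm38.p6. The alternatives tried are no pairing, the methods' t-test, other variance models, scalings, probe set rules and filters, sets of pools, and leaving out each pair.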

Additional observations from a re-analysis of the deposited data

Results flagged for a closer look

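In 72 sets of 7 values, the Lu-pos levels, Lu-neg levels and paired differences of the 9 measured members and the pathway genes named by rule, 1 value stood apart from the others by Dixon's gap test. Scd3 was at 3.55 in Lu-pos sample 7, with the other 6 Lu-pos samples between 2.74 and 3.08, all below the background level of 3.73. Chance flags about 1 in 20 such sets.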

How the results depend on the processing

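The direction of every member called was the same under all alternatives tried, and so was that of each called pathway gene named by rule, except that Pparg gave no value with genes under background left out. Without the replicate block limma called 4 members higher and 3 lower, and 8 pathway genes higher and 8 lower, against 4, 3, 7 and 10 with it. By the methods' t-test after Benjamini-Hochberg adjustment, 2 members were called higher, Fads3 and Scd1 being lost, and 4 pathway genes were higher and 5 lower; over all genes 459 were higher and 737 lower, against 964 and 1595 by limma. At the methods' own threshold (uncorrected p and fold change) it called 4 members higher and 2 lower, Elovl1 being lost. With the housekeeping scaling 12 pathway genes were higher and 6 lower; without Hprt, which was itself called lower, 8 and 8, a choice made after seeing the data. Pairs 1 to 3 alone gave 2 members higher and 1 lower, and 4 and 5 pathway genes. Pairs 4 to 7 alone gave 3 members higher and 1 lower, and 1 and 6 pathway genes. These fits have fewer samples. With each pair left out in turn, the members higher numbered 3 to 4 (Scd1 was lost without pair 6 or 7) and those lower were 3 each time, and the pathway genes 7 to 9 and 7 to 10. The signal over background limits what can be said of Elovl2, Elovl3, Elovl4, Scd3, Scd4 and Fads2b.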
